A study of Gossypium hirsutum with 15 samples.

Results

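Expression in fibers of the *im* mutant at 25 DPA (days post anthesis) was compared with expression in fibers of the same line at 13 DPA. The comparison used 6 of the 30 channels in the series, namely the *im* channel of the 3 dual-dye arrays at 13 DPA and of the 3 dual-dye arrays at 25 DPA. *im* is a recessive mutant with immature fibers in the background of the Upland cotton standard line TM-1 (*Gossypium hirsutum*), and TM-1 was the other channel of every array. Both lines were grown in the field and fibers of several plants were pooled for each sample, so plant-to-plant spread is not seen in these values. The series covered 13, 16, 19, 22 and 25 DPA with 3 arrays per stage and 15 in all. The sample labels give fiber as the tissue, whereas the series record speaks of ovules that bear fibers.

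A cotton fiber is a single cell that grows out of the seed coat. It elongates by laying down a thin primary wall, and then passes through a transition to secondary wall thickening, in which nearly pure cellulose is deposited until the cell dries out. Of the stages sampled, 13 DPA falls in elongation and 25 DPA in secondary wall thickening in a normal line, and *im* fibers are known for a thin secondary wall.

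Each array carried 29184 cDNA probes from Upland cotton ovules and fibers beside 816 control spots. No table at hand ties the spot names to genes or gives a probe sequence, so a DEG below is a probe, no gene or pathway is named, no sequence is shown, and the tissue label could not be checked against fiber or seed markers. *im* was read from the source names, which place it in Cy5 on replicates 1 and 3 and in Cy3 on replicate 2. The Cy5/Cy3 ratios of replicate 2 correlated with those of replicates 1 and 3 of the stage at -0.61 to -0.40, and the ratios of replicates 1 and 3 correlated with each other at 0.53 to 0.63, as values across probes. Replicate 2 therefore ran opposite to the other arrays. Which line is which is less certain. By the methods, Cy5 held TM-1 before the swap, and on that reading every *im* value below belongs to TM-1 and every TM-1 value to *im*. The methods speak of 3 biological pools per stage in the account of the plants, and of 2 biological replicates with a dye swap in that of the arrays. Had the swap reused an extract, part of the spread behind the p-values would be technical.

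Between 16792 and 19272 probes were measured per array at 13 DPA, and 14128 to 17575 at 25 DPA, a probe counting as measured where at least 1 of the dyes reached 400 units over background. The median background of the *im* channel was 73 to 345 units at 13 DPA and 60 to 519 units at 25 DPA. Normalized log2 levels of *im* correlated across probes at 0.91 to 0.92 among the 13 DPA arrays, 0.81 to 0.91 among the 25 DPA arrays and 0.69 to 0.78 between the stages. The lower values at 25 DPA were those of replicate 2, at 0.87 with replicate 1 and 0.81 with replicate 3, while replicates 1 and 3 correlated at 0.91. On replicate 2 of 25 DPA, 36.4% of the probes tested carried a negative flag in the deposited files. On the other arrays of these stages it was 4.41% to 13.1%.

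In *im*, 644 probes were higher at 25 DPA and 1319 probes were higher at 13 DPA, out of 14551 probes tested. A probe was a DEG where limma gave an FDR-adjusted p under 0.05 and the change reached 2-fold. The 1963 DEGs were 13.5% of the probes tested, with 4.43% rising to 25 DPA and 9.06% falling. Falling DEGs outnumbered rising ones by 2.05 times and made up 67.2% of all DEGs. The median rising DEG changed by 2.98-fold (quartiles 1.32 and 1.97 on the log2 scale) and the median falling DEG by 2.94-fold (quartiles -1.998 and -1.32). A change of at least 16-fold was reached by 15 rising and 22 falling DEGs, and the largest changes were 64.0-fold upwards and 36.1-fold downwards. The median standard error of a log2 change was 0.39 among rising DEGs, 0.40 among falling DEGs and 0.42 among all probes tested. Leaving out any 1 of the 6 arrays except replicate 3 of 25 DPA lowered the count, to 1320, 1264 and 1310 without replicates 1, 2 and 3 of 13 DPA and to 1265 and 1412 without replicates 1 and 2 of 25 DPA. Without replicate 3 of 25 DPA there were 2049 DEGs. Falling DEGs outnumbered rising ones in each case. In the plot of change against level, the rising probes reach further from 0 than the falling ones, although there are fewer of them.

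**Figure D1:**
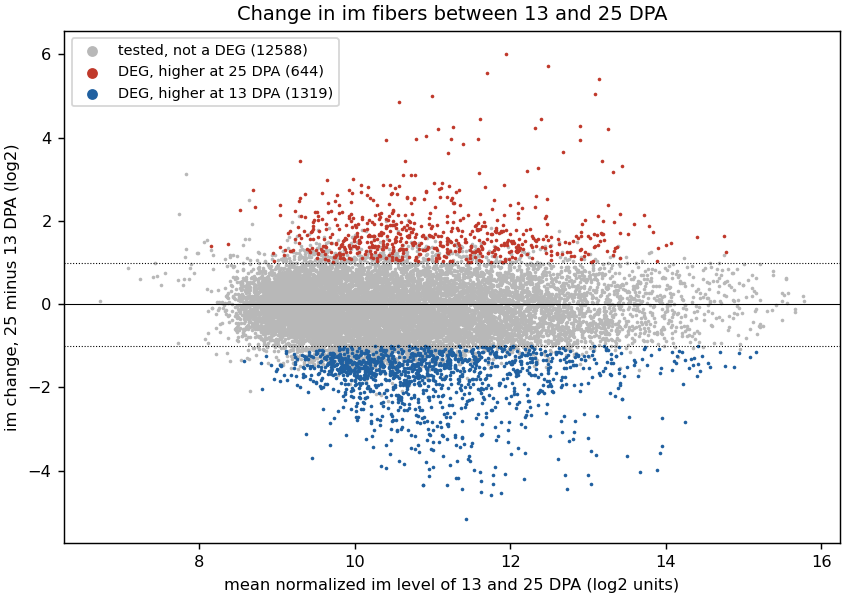
Change in *im* between 13 and 25 DPA (vertical axis, log2, positive is higher at 25 DPA) against the mean normalized *im* level of both stages (horizontal axis, log2 units), one point per probe tested and dotted lines at 2-fold. The 644 rising DEGs reach 5.999 on the log2 scale, and the 1319 falling DEGs lie below the lower dotted line down to a 36.1-fold fall.

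The balance of rising and falling probes depended on how the arrays were brought to one scale. After Aquantile normalization, which gives all arrays the same distribution of mean levels over the probes measured, the median probe tested changed by -0.18 on the log2 scale and 59.5% of the probes tested fell. Without that step the median was -0.58, and there were 218 rising and 2602 falling DEGs, 92.3% of them falling. With the arrays centred on the probes measured on all 6 of them, an alternative chosen after these counts had been seen, the median was 0.11, and there were 1349 rising and 1104 falling DEGs, 45.0% of them falling. With no filter on faint spots the median was 0.04, with 1558 rising and 1718 falling DEGs. Whether more probes rose or more fell thus changed with the scaling. Of the 1319 falling DEGs, 1070 were called in the same direction under all 3 scalings, and of the 644 rising DEGs, 218 were (33.9%). The rising calls were thus mostly lost under 1 of these scalings, the one without Aquantile. Relative to the median probe, 1164 of the 1319 falling DEGs changed by at least 2-fold, and for rising DEGs the fall of the median probe makes this condition certain to be met. No DEG was called in the opposite direction under any alternative run. Bulk RNA was measured, so a fall in a transcript and a rise in the rest of the RNA cannot be told apart.

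Probe 384P56_B_04 had the largest rise among DEGs with an *im* signal of at least 400 units on all 6 arrays. Its normalized log2 level in *im* read 9.33, 8.80 and 8.71 on the 13 DPA arrays and 15.13, 14.80 and 14.91 on the 25 DPA arrays. The stages did not overlap and lay far apart compared with the spread within either. The change was 5.999 ± 0.48 on the log2 scale (SE, 95% confidence interval 5.02 to 6.98, n = 3 and 3), or 64.0-fold, with an adjusted p of 4.91e-10 in limma. Its mean level was 8.95 at 13 DPA, 11.29 at 16 DPA, 13.54 at 19 DPA, 14.88 at 22 DPA and 14.95 at 25 DPA. By the material labels, which name the lines the other way round at 16 and 22 DPA, the mean was 13.18 at 16 DPA and 15.06 at 22 DPA. Nearly all of the rise was in place by 22 DPA under both. The 16 DPA arrays spread most, with an SD of 1.19.

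Probe 384P18_D_16 had the largest lower bound of a rise among the 6 rising DEGs whose *im* signal was under 400 units on all 3 arrays at 13 DPA. The *im* log2 levels were 8.53, 7.80 and 8.14 at 13 DPA and 11.20, 10.90 and 11.32 at 25 DPA. All 25 DPA values lay above all 13 DPA values. The rise was 2.98 on the log2 scale, or 7.91-fold (adjusted p = 4.95e-05 in limma). The 13 DPA values were then taken as no lower than the faintest *im* signal of at least 400 units on the same array. The rise was then 2.97, or 7.85-fold, and this bounded change was not itself tested. The limit hardly moved the 13 DPA signals, which were 390.5, 248 and 312 units before normalization. It is thus not a bound at 400 units. The mean of the probe was 9.24 at 16 DPA, 10.13 at 19 DPA and 12.15 at 22 DPA, which was above the mean of 11.14 at 25 DPA. By the material labels it was 9.52 at 16 DPA and 12.48 at 22 DPA. For all 6 probes of this kind the bound by the same limit was 2.97-fold to 7.85-fold. Their 13 DPA spots were measured only where TM-1 reached 400 units, so the selection favoured a low *im* level beside TM-1.

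Among falling DEGs with *im* at 400 units or more on all 6 arrays, the largest fall was that of probe 384P56_B_16. Its log2 levels in *im* were 13.79, 14.18 and 14.17 at 13 DPA and 9.73, 9.15 and 9.53 at 25 DPA. The 25 DPA arrays were lower than every 13 DPA array by more than 4 log2 units, and the change was -4.58 ± 0.39 (SE, 95% confidence interval -5.38 to -3.77, n = 3 and 3), or 23.9-fold, with an adjusted p of 1.98e-09 in limma. The level was 13.40 at 16 DPA and 12.18 at 19 DPA, then 9.73 at 22 DPA and 9.47 at 25 DPA. By the material labels it was 13.70 at 16 DPA and 10.04 at 22 DPA, and under both the largest step lay between 19 and 22 DPA.

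Probe 384P25_C_16 had the largest lower bound of a fall among the 9 falling DEGs with *im* under 400 units on all 3 arrays at 25 DPA. Its log2 levels were 12.05, 11.89 and 11.93 at 13 DPA and 8.72, 8.56 and 8.28 at 25 DPA. The fall was 10.8-fold (adjusted p = 3.99e-07 in limma). With the same limit for the 25 DPA values it was at least 9.56-fold, a bound that was not itself tested. The bounds of the 9 probes were 1.73-fold to 9.56-fold, and their 25 DPA spots were measured only where TM-1 reached 400 units. The fall of 384P25_C_16 was not steady. The mean was 10.63 at 16 DPA, 9.35 at 19 DPA on the 2 arrays that measured it, 10.38 at 22 DPA and 8.52 at 25 DPA, and by the material labels it was 10.03 at 16 DPA and 10.46 at 22 DPA. All 4 probes kept their direction and their call in every alternative in which they were tested. With either dye under 400 units left out, only 384P56_B_04 was tested, and with negative flags left out 384P25_C_16 was not.

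**Figure D2:**
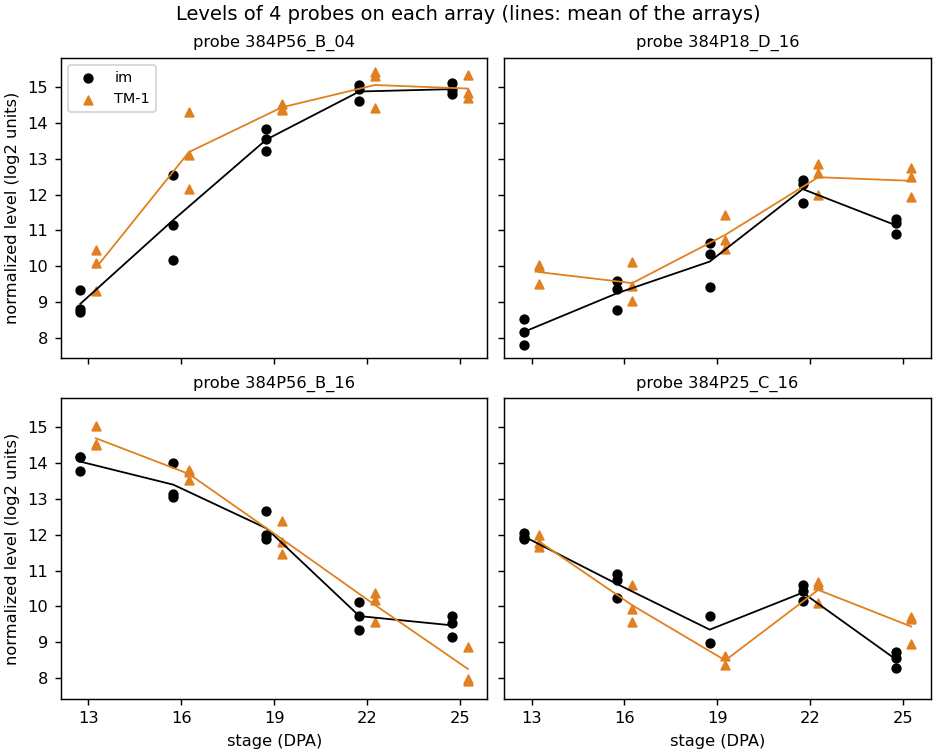
Normalized log2 level (vertical axis) of the 4 named probes on every array against stage in DPA (horizontal axis), with *im* as circles, TM-1 as triangles and lines through the means, lines of cotton assigned by the source names. In *im* the upper pair of panels rises from 8.95 and 8.16 at 13 DPA to 14.95 and 11.14 at 25 DPA, and the lower pair falls from 14.05 and 11.96 to 9.47 and 8.52.

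Most DEGs separated the stages on every array. Of the 590 rising DEGs measured on all 6 arrays, 572 had every 25 DPA value above every 13 DPA value, and of the 1099 falling DEGs measured on all 6, 1067 had every 25 DPA value below. Among all 11447 probes tested that were measured on 6 arrays, 14.0% were free of overlap upwards and 24.5% downwards. The DEGs were called on these same values, so this is a description of them. A DEG call close to the fold threshold changed little in size. The 20 rising DEGs nearest the threshold changed by 2.00-fold to 2.09-fold, and the 18 rising probes that passed the adjusted p and missed 2-fold changed by 1.77-fold to 1.99-fold. On the falling side, the 20 nearest DEGs changed by 2.00-fold to 2.04-fold, and the 20 probes nearest below the threshold by 1.91-fold to 2.00-fold.

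The DEGs were called on arrays of both dyes together, so the direction on each is a description of them. On replicate 2, where *im* was in Cy3, 629 of the 632 rising DEGs measured at both stages were higher at 25 DPA, and all 1208 falling DEGs measured at both stages were lower. All 644 rising and all 1319 falling DEGs had the direction of their call on replicates 1 and 3, where *im* was in Cy5. Among all probes tested, 36.7% rose on replicate 2 and 44.5% on replicates 1 and 3. The size differed somewhat between the dyes. The median log2 change of rising DEGs was 1.66 in Cy5 and 1.48 in Cy3, and that of falling DEGs was -1.49 in Cy5 and -1.83 in Cy3. The difference goes in the downward direction for both sets, and its link to the dye was not tested, since replicate 2 is also a separate array at each stage. Replicate 2 of 25 DPA was also the array with the most negative flags, on 36.4% of the probes tested, and the part of this was not tested.

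The share of probes called grew with the level of the probe and then levelled off. With the probes tested divided into 5 equal bins by their mean *im* level, 2.58% were DEGs in the faintest bin, 11.2% in the next, then 17.2%, 19.0% and 17.4%. The median standard error fell from 0.48 in the faintest bin to 0.36 in the brightest. Rising DEGs made up 1.13% of the faintest and 6.22% of the brightest bin, and falling DEGs 1.44% and 11.2%. Falling DEGs were at their highest share, 13.4%, in the bin between log2 levels of 10.75 and 11.69. Whether the lower share among faint probes goes with their larger errors was not tested.

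About as many probes were left untested as were tested. Of 14633 untested probes, 9912 were measured on fewer than 2 arrays at both stages, 909 at 13 DPA only and 3812 at 25 DPA only. Some of these passed from background to signal. For 81 probes, both dyes were under 400 units on every 13 DPA array and *im* was at 400 units or more on every 25 DPA array, and the median of their mean *im* signals was 205 units at 13 DPA and 983 units at 25 DPA. For 831 probes the reverse held, with 796 units at 13 DPA and 187 units at 25 DPA. These counts carry no test, and both lines had to be faint for a probe to enter them. The faint stage was a bound for each of them. They also read signals before normalization between arrays, so the unequal number of probes measured at the stages moves with them.

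The levels at the stages between are no term of the contrast that called the DEGs, although their arrays shared its normalization and its estimate of the spread, and they show when the change took place. As a share of each probe's change from 13 to 25 DPA, the median rising DEG had reached 5.42% at 16 DPA, 42.4% at 19 DPA and 88.1% at 22 DPA. The median falling DEG had reached 13.7%, 57.5% and 84.7%. By the source names, the *im* levels at 16 DPA thus lay close to those at 13 DPA, and the levels at 22 DPA close to those at 25 DPA. By the source names, the shares spread most widely at 19 DPA. The *im* levels of the 19 DPA arrays correlated at 0.81 to 0.89, against 0.90 to 0.92 at 16 DPA and 0.90 to 0.91 at 22 DPA. The part of this in the spread of the shares was not tested. At 19 DPA, 252 rising DEGs had made less than 25% of their change, 207 had made 25% to 75% and 181 had made more than 75%, out of 640 measured. Among 1301 falling DEGs, these counts were 309, 518 and 474. Falling DEGs were further along than rising DEGs at 19 DPA on replicates 1 and 3, with medians of 66.7% against 39.2% and 53.5% against 43.9%, and less far on replicate 2, with 43.7% against 51.7%. The order of the sets at 19 DPA therefore did not hold on every array. On replicate 2 the *im* channel had a background of 797 units, against 122.5 and 90.5 units on replicates 1 and 3, and the part this played was not tested.

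**Figure D3:**
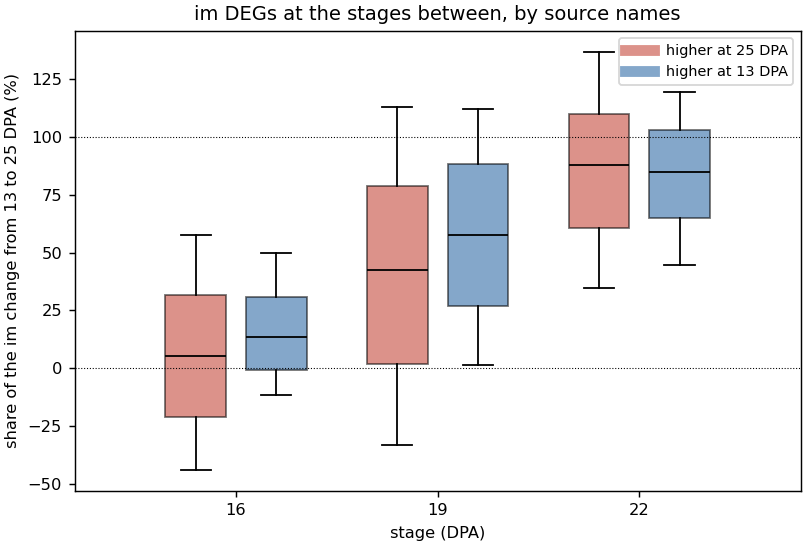
Share of each probe's change from 13 to 25 DPA that its mean *im* level had reached (vertical axis, percent) at 16, 19 and 22 DPA (horizontal axis), for rising DEGs (red) and falling DEGs (blue). Boxes span the quartiles with the median as a line and whiskers run from percentile 10 to percentile 90, and the medians climb from 5.42% and 13.7% at 16 DPA to 88.1% and 84.7% at 22 DPA.

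For 16 and 22 DPA the labels disagree. There the material labels name the lines the other way round from the source names, while at 13, 19 and 25 DPA both agree. By the material labels, the median rising DEG had reached 37.0% at 16 DPA and 92.7% at 22 DPA, and the median falling DEG 33.6% and 96.0%. The quartiles of rising DEGs at 16 DPA were then -1.49% and 74.4%, nearly as wide apart as 1.81% and 79.0% at 19 DPA. The near absence of change by 16 DPA is thus found under the source names and not under the material labels, and the high share at 22 DPA under both.

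The stage means of single probes seldom moved in 1 direction at every step. No step was tested, and the means rest on at most 3 arrays, so steps reversed within the error are counted as well. Of 633 rising DEGs measured at all 5 stages, 69 rose at each step, and of 1292 falling DEGs, 318 fell at each step. The highest mean of a rising DEG was at 25 DPA for 380 probes, at 22 DPA for 187 and at 19 DPA for 66. The lowest mean of a falling DEG was at 25 DPA for 842 probes, at 22 DPA for 304, at 19 DPA for 143 and at 16 DPA for 3. These counts follow the source names. By the material labels, 52 rising and 199 falling DEGs moved in their direction at each step. The highest mean of a rising DEG was then at 25 DPA for 318 probes and at 22 DPA for 213, and the lowest mean of a falling DEG for 604 and 531. The largest single step of a rising DEG lay between 19 and 22 DPA for 281 probes and between 16 and 19 DPA for 224, and that of a falling DEG between 16 and 19 DPA for 579 and between 19 and 22 DPA for 422. By the material labels these counts were 297 and 57 for rising DEGs and 288 and 506 for falling DEGs, so the place of the largest step among falling DEGs depended on which labels were used. The first step, from 13 to 16 DPA, was the largest for 46 rising and 110 falling DEGs by the source names, and for 221 and 376 by the material labels.

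The same probes were also compared between 16 and 22 DPA, on arrays whose levels are no term of the contrast between 13 and 25 DPA. These arrays did enter the normalization, the intraspot correlation and the shared estimate of the spread, so the comparison is not fully independent of the calls. With only the 6 arrays of 13 and 25 DPA in the fit there were 2186 DEGs, which held 1855 of the 1963. Of 614 rising DEGs tested, 367 were also higher at 22 than at 16 DPA in *im* (59.8%), where 6.88% of all 14163 probes tested were, and 0 were called in the opposite direction. Of 1260 falling DEGs tested, 608 were also lower at 22 DPA (48.3%), where 7.75% of all probes were, and 1 was called in the opposite direction. The median log2 change from 16 to 22 DPA was 1.41 for rising DEGs and -1.11 for falling DEGs, against -0.10 for all probes tested. Without regard to the call, 596 of the 614 and 1212 of the 1260 moved in the direction they had between 13 and 25 DPA. The material labels gave lower counts. By them 232 of the rising DEGs (37.8%, against 6.27% of all probes) and 518 of the falling DEGs (41.1%, against 8.88%) were called in the same direction, and 9 and 7 in the opposite direction. Under both sets of labels the members were called several times as often as all probes tested.

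More probes were called in TM-1 than in *im* over the same days. In the TM-1 channel of the same 6 arrays, 3530 probes were DEGs between 13 and 25 DPA (24.3% of probes tested), with 1282 higher at 25 DPA (8.81%) and 2248 higher at 13 DPA (15.4%). The SD of the log2 change over all probes tested was 1.09 in TM-1 and 0.89 in *im*. The channels share their spots, with an intraspot correlation of 0.86, so the lists of both lines are not independent of each other. Of the 644 rising *im* DEGs, 502 were called in the same direction in TM-1, which is 78.0% of the *im* list and 39.2% of the TM-1 list. Of the 1319 falling *im* DEGs, 1122 were, which is 85.1% and 49.9%. None was called in the opposite direction in TM-1. The rising *im* DEGs had a median log2 change of 1.57 in *im* against 1.69 in TM-1, and the falling DEGs one of -1.56 in *im* against -1.73 in TM-1. The TM-1 change was the larger in 334 of 644 rising and in 817 of 1319 falling *im* DEGs, although the members had been called for their change in *im*. If the dyes are read as the methods state them, the names of the lines change places throughout.

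Whether the change differed between the lines was tested on the ratio of *im* over TM-1 within arrays, 25 against 13 DPA. Over all probes tested, 999 passed an adjusted p under 0.05 in limma with a difference of at least 2-fold (6.87%). The change in *im* lay above that in TM-1 for 521 of them (3.58%) and below it for 478 (3.28%). Among rising *im* DEGs 124 passed, with the larger rise in *im* for 67 and in TM-1 for 57. Among falling *im* DEGs 111 passed, with the larger fall in *im* for 33 and in TM-1 for 78. These counts are descriptions, because the change in *im* that called the members is also a term of this test. For 14 of the rising and 3 of the falling DEGs that passed, the TM-1 level moved in the opposite direction. For the other 1728 *im* DEGs a difference between the lines was not called, which does not show that the lines changed alike.

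**Figure D4:**
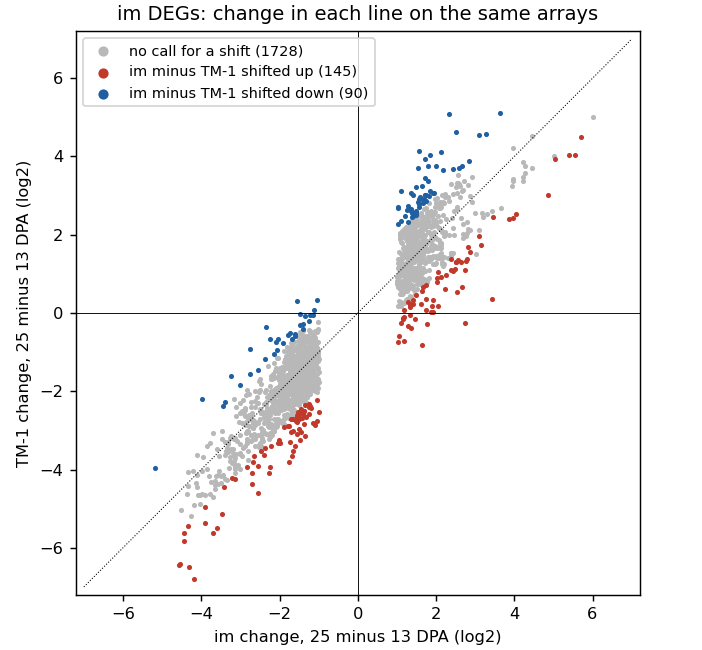
Log2 change from 13 to 25 DPA in TM-1 (vertical axis) against that in *im* (horizontal axis) for the 1963 *im* DEGs, with the line of equal change dotted. Coloured points passed the test of the difference between the lines, 145 with the *im* change above the TM-1 change and 90 below it.

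In none of the 4 named probes did TM-1 move in the opposite direction to *im*. All 4 were named by their change and signal in *im*, so the differences between the lines below are descriptions. Probe 384P56_B_04 rose by 5.01 on the log2 scale in TM-1, 0.99 less than in *im* (SE 0.25, adjusted p = 0.0137 in limma), a 1.98-fold difference that missed the 2-fold limit. It started lower in *im*, at 8.95 against 9.95, and ended at 14.95 against 14.96. Probe 384P18_D_16 rose by 2.55 in TM-1, and the difference of 0.43 from *im* was not called (adjusted p = 0.331 in limma). Its 13 DPA spots passed the filter only because TM-1 reached 400 units, so the selection favoured a larger rise in *im*. Probe 384P56_B_16 changed by -6.45 in TM-1, so that the *im* change lay 1.87 above it (SE 0.23, adjusted p = 9.12e-05). For this probe 2 of the 3 TM-1 values at 25 DPA lay under 400 units, at 237.5 and 265 units, so its TM-1 fall is a bound. Those values were then taken as no lower than the faintest TM-1 signal of at least 400 units on the same array. The TM-1 change was then -6.24 and the difference 1.67. The difference with these values set to 400 units itself was not computed. Probe 384P25_C_16 changed by -2.37 in TM-1, so that the difference of *im* from TM-1 was -1.06 (SE 0.24, adjusted p = 0.0067), and here *im* at 25 DPA was the faint one on all 3 arrays. Against its bound the difference was -0.88, or 1.84-fold, which is under the 2-fold limit. Its 25 DPA spots passed the filter only because TM-1 reached 400 units, so the selection favoured this sign.

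Spot names hold the number of the source plate, and DEGs were not spread evenly over the 76 plates. On plates 1 to 19, where 27.0% of the probes were tested, 2.23% of tested probes rose and 9.53% fell. On plates 20 to 38, 4.68% rose and 7.19% fell, on plates 39 to 57, 3.60% rose and 12.2% fell, and on plates 58 to 76, 6.23% rose and 6.96% fell. The median level of the tested probes was 9.999, 10.30, 10.72 and 10.27 in the same order, so plates 39 to 57 had both the highest level and the highest falling share, and the part of level was not tested. The highest share of rising DEGs was on plate 73, with 28 of 197 probes tested (14.2%), and the highest share of falling DEGs on plate 44, with 53 of 290 (18.3%). The order of the 4 runs of plates in their falling share was the same without Aquantile, with 18.0%, 14.6%, 23.8% and 14.2%, and with centred arrays, with 7.65%, 6.01%, 10.6% and 5.56%. The sources used here do not say what each plate holds.

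**Figure D5:**
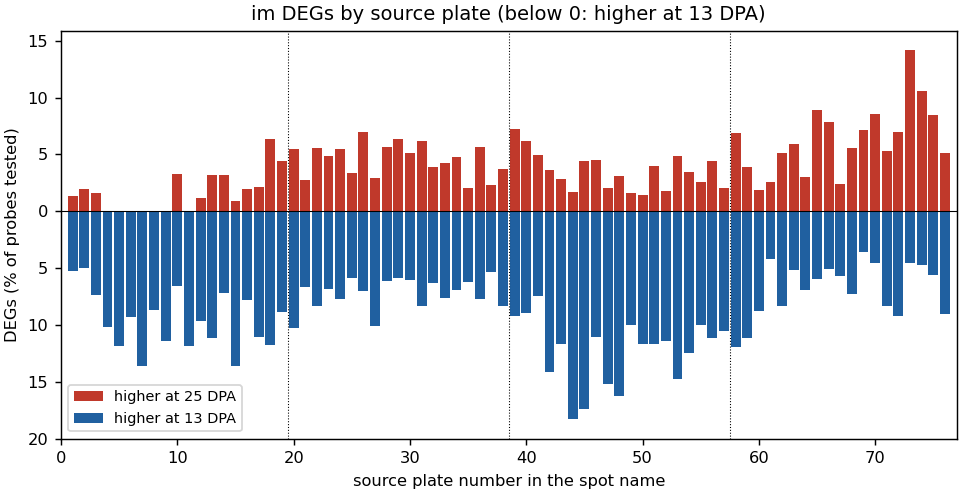
Share of tested probes called as DEGs in *im* (vertical axis, percent) by source plate (horizontal axis), rising DEGs upwards in red and falling DEGs downwards in blue, with dotted lines between the 4 runs of 19 plates. Rising DEGs peak at 14.2% on plate 73 and falling DEGs at 18.3% on plate 44.

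Place on the slide also moved with the calls. In blocks 1 to 24, 4.92% of probes tested rose and 7.02% fell, and in blocks 25 to 48, 3.97% rose and 10.9% fell, although both sets of blocks held probes of all 76 plates. The falling share was higher in blocks 25 to 48 for each of the 4 runs of plates, at 10.8% against 8.08%, 9.52% against 4.54%, 14.6% against 9.68% and 8.12% against 5.68%. The difference between the runs of plates was present within both sets of blocks, with plates 39 to 57 the highest in each. The part of the hybridisation in the difference between blocks was not tested.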

How the data were processed

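Spots were quantified by the authors in LuxScan. Their deposited files hold, per array, the median intensity of every spot in Cy5 and Cy3 with the local background taken off. The deposited value table holds the authors' log2 ratios of Cy5 over Cy3, not turned for the dye swap. On these 6 arrays it correlated with the intensities at 0.967 to 0.992 (slopes 0.928 to 1.00), and its column medians were 0.000503 to 0.0183. The methods name LOWESS and Aquantile for these data but do not say which of them the table includes, and it served as an alternative. limma 3.4.5 and R 2.12.2 are the tools in the submitters' processing notes.

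Spots with both dyes under 400 units were left out, as a reading of the methods, and values were raised to 50 units before log2. Between 3 and 47 *im* probes per array were saturated at 65535 units and kept. Loess within and Aquantile between arrays followed, in limma 3.58.1 with R 4.3.3. All 15 arrays entered the fit of single-channel levels, with 1 coefficient per line and stage and an intraspot correlation from at most 3000 probes. Testing required 2 measured arrays per stage, and p-values were adjusted by Benjamini-Hochberg over all probes tested. The fits were tested on simulated data of 14551 probes, 200 of them changed in *im* alone. The *im* fit recovered 21% of changes of 1.3 on the log2 scale and 71% of changes of 2, with 6 other calls. The fit of the ratio recovered 76% and 94%, with 11 other calls. In the simulation, many changes near the 2-fold limit were thus missed by the *im* fit, and the 2 fits differed in power. In the data 1963 probes were called, so the cutoff that the Benjamini-Hochberg adjustment sets was not that of the simulation. The shares recovered therefore do not carry over to the data. Precision is limited by the number of arrays.

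The alternatives changed the faint-spot filter, floor, background correction, loess, scaling between arrays, arrays and channels fitted, dye term, replicate block, arrays required, flags, fold threshold and line assignment, or left out an array. Named probes were, per direction, the DEG with the largest fold at 400 units or more on all 6 arrays and no overlap, and that with the largest bound where the lower stage was faint. The comparison, the lists and the rules were chosen with earlier results of these data known. Gene lists and tissue markers were not used, as no table here pairs spots with genes.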

Additional observations from a re-analysis of the deposited data

Results flagged for a closer look

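The change from 13 to 25 DPA differed between *im* and TM-1 for 999 probes by the test of the difference itself (limma on the ratio within arrays, adjusted p under 0.05 and at least 2-fold, 6.87% of probes tested). Probe 384P56_B_16 fell less in *im* than in TM-1, with a difference of 1.87 on the log2 scale (adjusted p = 9.12e-05 in limma). TM-1 was faint at 25 DPA on 2 of the 3 arrays, and with the limit used for faint values the difference was 1.67. That limit is not a bound at 400 units. The rule that named the probe asked for at least 400 units in *im* on all 6 arrays and not in TM-1. It thus favoured this direction, and the p-value is a description. Probe 384P25_C_16 fell more in *im* than in TM-1, with a difference of -1.06 (adjusted p = 0.0067 in limma). *im* was under 400 units on all 3 arrays at 25 DPA, and against its bound the difference was -0.88, or 1.84-fold, under the 2-fold limit of a call. The probe was named for this faint *im* signal, and its 25 DPA spots passed the filter only because TM-1 reached 400 units. The selection thus favoured the sign of the difference, and the p-value is a description.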

How the results depend on the processing

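The number of *im* DEGs stayed within 1.5 times of 1963 under 20 of the 24 alternatives, and no DEG was called in the opposite direction under any of them. It was 3276 with no filter on faint spots (29184 probes tested) and 3530 with the lines exchanged as the methods state the dyes, where TM-1 then had 1963. With the dye labels as written, which place *im* in Cy5 on all arrays, TM-1 had 2312 DEGs and *im* 1561. Leaving out 1 array gave 1264 to 2049 *im* DEGs (1264 without replicate 2 of 13 DPA, 1265 without replicate 1 of 25 DPA), 2618 to 3343 TM-1 DEGs and 794 to 1076 probes with a difference between the lines. With either dye under 400 units left out, there were 1804 *im* DEGs and 693 differences between the lines. The share of falling *im* DEGs, 67.2%, was 92.3% without Aquantile, 52.4% without the filter and 45.0% with centred arrays. By the material labels, the median share of the change reached at 16 DPA moved from 5.42% to 37.0% for rising and from 13.7% to 33.6% for falling DEGs. Deviations of same-numbered arrays of 13 and 25 DPA correlated at 0.03, 0.12 and -0.02, so that the numbers did not pair the arrays. A fit of the *im* channels alone gave 2148 DEGs, and 1550 with the replicate block. The difference between the lines was called for 1025 probes with the replicate block and for 1022 from the deposited value table. Faint probes had the largest errors, and a probe under 400 units in both dyes was not measured.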
